A study of Homo sapiens with 2 samples.

Results

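The nuclear oxidative phosphorylation subunits examined here are 37 genes of the 33538 listed in the count tables. They were chosen by symbol and cover 9 accessory subunits of complex I, 2 subunits of complex II, 6 of complex III, cytochrome c, 11 of complex IV and 8 of complex V, the ATP synthase. Their unique molecular identifiers (UMIs, each standing for 1 captured RNA molecule) were read in UMUC3, an established human bladder carcinoma cell line. The cells had grown for 14 days in the bladders of C57 nude mice, which lack functional T cells. The study made 1 single-cell 3' RNA library from control UMUC3 cells and 1 from UMUC3 cells with knockdown of GANAB, which encodes the catalytic subunit of glucosidase II, an enzyme that trims N-glycans in the endoplasmic reticulum. Mice of both groups were kept without further treatment, and the labels give neither the knockdown reagent, nor whether the control carried a vector, nor how many mice or clones each library came from. With 1 library per group no difference between the groups has a replicate check, and every interval given covers counting error only.

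Oxidative phosphorylation passes electrons from NADH through complex I, and from succinate through complex II, to complexes III and IV, with cytochrome c carrying them between the last pair. Complexes I, III and IV pump protons across the inner mitochondrial membrane, and complex V uses the gradient to make ATP. Mitochondrial DNA encodes a small set of core subunits of these complexes except complex II, whereas the subunits described here are made from nuclear genes and imported.

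Cells were taken as barcodes with at least 15000 UMIs, of which at most 20% came from mitochondrially encoded (MT-) genes. This kept 4385 cells of the control library (214188781 UMIs, median 44046 per cell) and 2672 of the knockdown library (132709954 UMIs, median 40933), and the libraries shared 4 barcodes. GANAB stood at 127 CPM (its UMIs over all UMIs of the kept cells, times 1000000) in the control cells and at 42.3 CPM in the knockdown cells, 2.99-fold lower. Of 12 markers set for UMUC3, 10 reached 10 CPM in control cells and 11 in knockdown cells, with KRT19 under 1 CPM in both. None of 12 urothelial markers reached 10 CPM in either library, and the defining genes UPK3A and KRT20 were at 0 in both, as were DCN and LUM of the fibroblast list. No fibroblast, endothelial or erythrocyte marker reached 10 CPM. CD68 (26.7 CPM in control and 24.9 CPM in knockdown cells) and G0S2 (129 and 66.2 CPM) of the 11 leukocyte markers did. They held nearly all of that list's sum of 157 CPM in the control and 93.1 CPM in the knockdown cells. PTPRC, CD74, LYZ, TYROBP, FCER1G and S100A8 were under 1 CPM in both libraries, and CD3E and NKG7 at 0 in both. The median MT- share per cell was 1.51% in the control library and 0.923% in that of the knockdown. The 16 S phase genes summed to 1158 and 706 CPM and the 16 G2 and M phase genes to 1879 and 1413 CPM in the same order. Beyond the splits by MT- share and cell cycle given later, the part of these values in the subunit results was not tested.

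All 37 subunit genes were detected well above the 10 CPM at which a gene was counted as measured, from 79.7 CPM for SDHC to 1964 CPM for ATP5F1E, both in the knockdown cells. Together they took 20258 CPM, or 2.03% of UMIs, in the control cells and 21821 CPM, or 2.18%, in the knockdown cells. The log2 ratio of knockdown over control for this sum was 0.11 (95% counting interval 0.105 to 0.109), 1.08-fold. In such sums a change in the kind of cells present and a change of RNA within cells cannot be told apart. The median subunit had a log2 ratio of 0.08, and the median of all 7872 measured genes was -0.07. The subunits spread from -0.63 to 0.85, with 24 intervals above 0, 12 below 0 and 1, that of NDUFA4, including 0. Of all measured genes 43.2% had a ratio above 0.

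A gene was called higher or lower where the ratio was at least 1.5 and its interval left out 1. This rule sets a size and tests nothing. By it 2 subunits were higher in the knockdown library, against 7.69% of all measured genes, and 1 was lower, against 10.4% of all genes. At a ratio of at least 1.2, 10 subunits were higher (20.5% of all genes were) and 6 were lower (31.4% of all genes were), and 21 subunits lay within 1.2-fold. As a share of the 37 this is 27.0% higher and 16.2% lower, and the calls at 1.5, 5.41% higher and 2.70% lower, were no more frequent than among all genes.

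**Figure D1:**
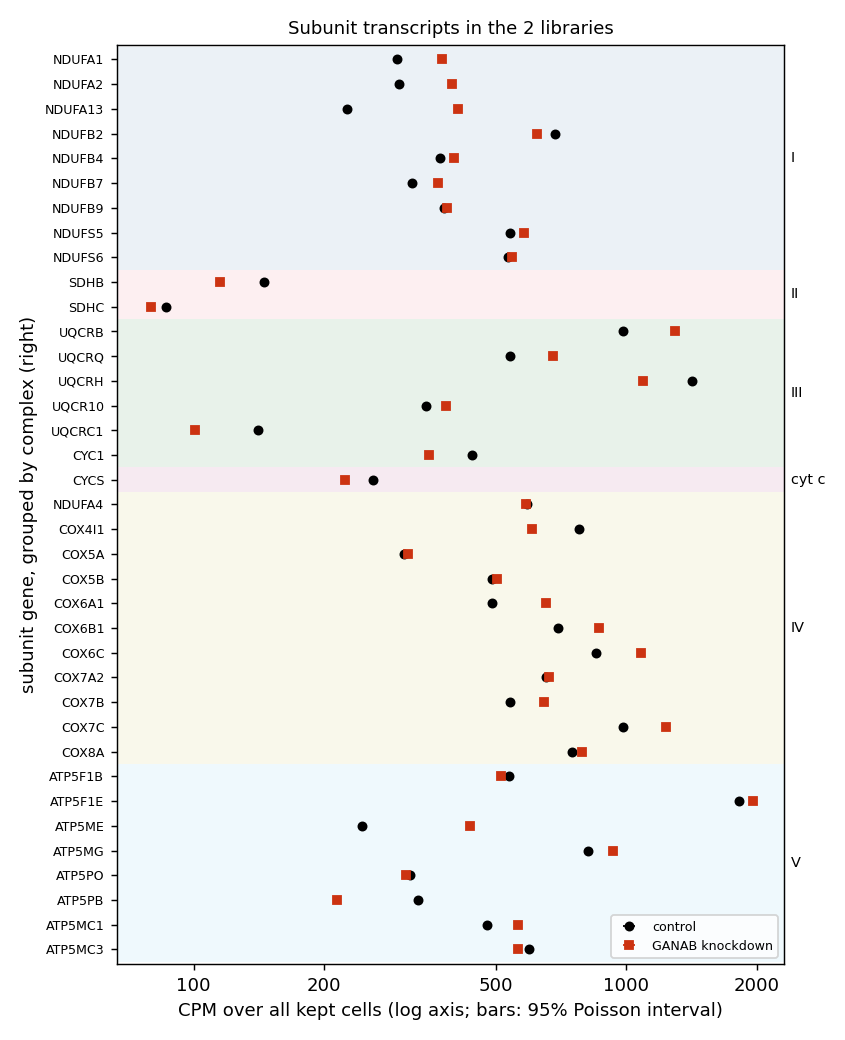
Level of each of the 37 subunit genes in CPM (log axis) over all kept cells of the control library (circles) and the GANAB knockdown library (squares), with 95% Poisson intervals that are mostly narrower than the symbols. Most pairs lie close together, while NDUFA13 (226 and 408 CPM), ATP5ME (245 and 434 CPM) and ATP5PB (331 and 214 CPM) are apart.

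The subunits beyond 1.5-fold were NDUFA13, ATP5ME and ATP5PB. NDUFA13, an accessory subunit of complex I also known as GRIM-19, stood at 226 CPM in the control and 408 CPM in the knockdown cells (log2 ratio 0.85, interval 0.83 to 0.87). ATP5ME, subunit e in the membrane part of the ATP synthase, stood at 245 and 434 CPM (0.83, 0.81 to 0.84). ATP5PB, subunit b of the peripheral stalk that holds the ATP synthase together, stood at 331 and 214 CPM (-0.63, -0.65 to -0.61). The next lowest subunit was UQCRC1, a core protein of complex III, at 141 and 101 CPM (-0.49). NDUFA13 overlaps 2 annotated genes on its own strand, YJEFN3 and AC011448.1, so some of its UMIs may not be separable from theirs. ATP5ME overlaps MYL5 and ATP5PB overlaps WDR77, each on the opposite strand. Whether counting used strand is unknown here.

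The promoters of these 4 genes are printed because they belong to the highest and lowest ratios among the subunits. Each is the 250 bases before the start site in RefSeq (GRCh38.p14), 5' to 3' on the gene's strand: NDUFA13 at chr19:19515975-19516224 (+), ATP5ME at chr4:674277-674526 (-), UQCRC1 at chr3:48609647-48609896 (-) and ATP5PB at chr1:111449214-111449463 (+). Capitals mark matches on either strand to the NRF1 motif of 10 bases, CCGGAAG (ETS factors, GABPA among them), AAGATGGC (YY1) and GGGCGG (SP1), factors that textbooks name as regulators of respiratory chain genes.
NDUFA13: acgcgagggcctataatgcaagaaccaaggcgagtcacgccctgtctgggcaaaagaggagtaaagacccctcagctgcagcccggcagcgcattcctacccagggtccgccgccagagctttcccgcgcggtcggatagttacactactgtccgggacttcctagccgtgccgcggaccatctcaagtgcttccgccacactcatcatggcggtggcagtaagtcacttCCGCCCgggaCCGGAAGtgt
ATP5ME: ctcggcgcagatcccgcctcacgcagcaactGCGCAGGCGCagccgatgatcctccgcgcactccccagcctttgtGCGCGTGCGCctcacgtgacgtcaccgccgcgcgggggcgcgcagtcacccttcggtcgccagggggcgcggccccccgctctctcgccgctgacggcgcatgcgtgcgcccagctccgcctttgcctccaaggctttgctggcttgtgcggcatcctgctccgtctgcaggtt
UQCRC1: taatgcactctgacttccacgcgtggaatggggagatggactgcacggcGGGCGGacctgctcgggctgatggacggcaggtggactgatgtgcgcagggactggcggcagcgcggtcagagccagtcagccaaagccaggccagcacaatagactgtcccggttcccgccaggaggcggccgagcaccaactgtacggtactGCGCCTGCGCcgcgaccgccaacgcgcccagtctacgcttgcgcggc
ATP5PB: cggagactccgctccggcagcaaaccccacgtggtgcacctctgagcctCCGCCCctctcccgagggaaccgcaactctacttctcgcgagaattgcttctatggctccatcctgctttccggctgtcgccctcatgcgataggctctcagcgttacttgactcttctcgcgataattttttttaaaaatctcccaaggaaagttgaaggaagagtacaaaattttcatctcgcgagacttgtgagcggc
In NDUFA13 the capitals are an SP1 and, next to the start site, an ETS match, and in ATP5ME both are NRF1 matches. UQCRC1 has an SP1 and an NRF1 match and ATP5PB an SP1 match alone in these bases.

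The promoter table held 28 of the 37 subunit genes, and the motifs were counted over windows that also take in the first 50 transcribed bases. The ETS motif was in 13 of the 28 windows (46.4%), among them NDUFA13, COX4I1, SDHB and UQCRH, against 10.7% of all 27305 windows and 22.1% of the 6308 windows of measured genes. The NRF1 motif was in 5 (17.9%), against 6.28% and 14.2%, and the SP1 motif in 17 (60.7%), against 44.6% and 73.1%. The YY1 motif was in 4 (14.3%), against 3.03% and 6.67%, and these were ATP5PB, ATP5PO, SDHB and UQCRC1. All 4 belong to the 8 matched subunits with a log2 ratio below 0, and 0 of the 20 with a ratio above 0 held it. This split was noticed after the ratios were seen, and none of the 4 matches lies in the bases before the start site. The ETS motif was in 3 of those 8 and in 10 of those 20. A match is a string of letters and not a shown site of binding.

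The 9 accessory subunits of complex I, which surround its catalytic core, summed to 3644 CPM in the control and 4078 CPM in the knockdown cells, a log2 ratio of 0.16. At 1.2-fold 3 of them were higher and 0 lower. Beside NDUFA13 these were NDUFA1, a small subunit of the membrane arm needed for assembly (295 and 376 CPM, log2 ratio 0.35), and NDUFA2, in the matrix arm (298 and 396 CPM, 0.41). NDUFB7, on the intermembrane side, had 319 and 367 CPM (0.20). NDUFB4 and NDUFB9 of the membrane arm had log2 ratios of 0.11 and 0.03, NDUFS5 0.11 and NDUFS6, near the iron-sulfur clusters, 0.03. NDUFB2 was the only one of the 9 with a ratio below 0 (683 and 622 CPM, -0.14). NDUFB2 overlaps ADCK2 on its own strand.

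The 2 subunits of complex II, the succinate dehydrogenase that also works in the citric acid cycle, were both lower in the knockdown library. Their sum was 232 CPM in the control and 195 CPM in the knockdown cells, a log2 ratio of -0.25 (-0.27 to -0.23). SDHB, which carries the iron-sulfur clusters, had 146 and 115 CPM (-0.34), and SDHC, a membrane anchor, had 86.3 and 79.7 CPM (-0.11). SDHB was past 1.2-fold and SDHC was not.

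Complex III was split. Its 6 subunits summed to 3864 and 3899 CPM, a log2 ratio of 0.01. This ratio lay below 0 when each cell was thinned to 15000 UMIs (-0.03) and when cells were weighted equally (-0.03). It also did without barcodes above 100000 UMIs (-0.01) and in cells with low cell cycle sums (-0.05). In cells of low, middle and high MT- share it was -0.04, -0.02 and 0.02. In the cells without low cell cycle sums it was 0.14. There 3 of its subunits were higher and 0 lower at 1.2-fold (17.9% and 27.4% of all genes). The values that follow are over all kept cells. The small subunits UQCRB (984 and 1296 CPM, 0.40) and UQCRQ (537 and 678 CPM, 0.33), which join cytochrome b early in assembly, were past 1.2-fold higher, and UQCR10 (344 and 383 CPM, 0.16) was higher by less. UQCRH, the hinge protein that docks cytochrome c (1419 and 1092 CPM, -0.38), UQCRC1, and CYC1, the haem-bearing cytochrome c1 (440 and 350 CPM, -0.33), were past 1.2-fold lower. UQCRHL, a near copy of UQCRH, had 1.04 and 0.859 CPM. CYCS, cytochrome c itself, which also starts caspase activation when released from mitochondria, had 260 and 223 CPM (-0.22). CYCS has 40 named pseudogenes in the annotation, which could share its reads.

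The 11 subunits of complex IV, cytochrome c oxidase, summed to 7121 and 7936 CPM, a log2 ratio of 0.16. At 1.2-fold 4 were higher, all of them small subunits around the catalytic core: COX6A1 (488 and 652 CPM, 0.42), COX6C (851 and 1080 CPM, 0.34), COX7C (984 and 1236 CPM, 0.33) and COX6B1 (696 and 862 CPM, 0.31). COX7B had 539 and 644 CPM (0.26) and COX8A 749 and 789 CPM (0.08). COX4I1, the subunit that binds ATP and tunes the enzyme, was the single one past 1.2-fold lower, at 776 and 605 CPM (-0.36). Its partners COX5A and COX5B each had a log2 ratio of 0.03, as did COX7A2, and NDUFA4, once assigned to complex I, had 589 and 588 CPM. Counting NDUFA4 in complex I gave 0.14 for that complex and 0.17 for complex IV. COX6C has 17 named pseudogenes.

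Complex V held the lowest ratio of all subunits, ATP5PB, and the next to highest, ATP5ME, and its sum went from 5136 to 5488 CPM, a log2 ratio of 0.10. Of the peripheral stalk, ATP5PB was lower, and ATP5PO, the subunit named OSCP that joins the stalk to the catalytic head, had 317 and 310 CPM (-0.03). In the head, the catalytic subunit ATP5F1B had 534 and 513 CPM (-0.06) and the small ATP5F1E had 1821 and 1964 CPM (0.11). In the membrane, ATP5MG, subunit g and neighbour of subunit e, had 817 and 930 CPM (0.19). ATP5MC1 and ATP5MC3, which encode the same mature subunit c of the rotor, differed in direction, with 476 and 562 CPM (0.24) against 597 and 561 CPM (-0.09). ATP5MC1, ATP5PB and NDUFB4 have 7, 7 and 12 named pseudogenes.

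The same 37 genes were then read within cells holding at least 2 UMIs of TMEM132D-AS1, a long noncoding RNA gene that marked the libraries unequally. Such cells were 241 of the control (5.50%, median 51552 UMIs) and 1942 of the knockdown library (72.7%, median 41100 UMIs). GANAB stood at 130 CPM in the former and 38.1 CPM in the latter. The 37 subunits summed to 19574 and 21692 CPM there, a log2 ratio of 0.15 (0.142 to 0.154), with a median subunit of 0.16 beside -0.09 for all 7720 measured genes. At 1.5-fold 2 subunits were higher, again NDUFA13 (253 and 409 CPM, 0.69) and ATP5ME (287 and 449 CPM, 0.65), against 3.58% of all genes, and 0 were lower, against 4.59%. At 1.2-fold 9 were higher (12.8% of all genes) and 4 lower (25.6%). As shares of the 37 these are 24.3% and 10.8%. COX6A1 (0.26), COX7C (0.25), CYC1 (-0.25) and COX4I1 (-0.15) were past 1.2-fold over all cells and not there, and COX5B (0.32) was past it there and not over all cells.

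Both comparisons put 22 subunits above 0 and 10 below 0 with intervals leaving out 0. The 10 were SDHB, SDHC, UQCRH, UQCRC1, CYC1, CYCS, COX4I1, ATP5F1B, ATP5PO and ATP5PB. The comparisons share most knockdown cells, so they do not count as separate evidence. Of all measured genes 43.2% had a ratio above 0 over all cells and 38.0% within the marked cells. How many of all genes had like or opposite intervals in both comparisons is not given here. The counts are therefore not read as particular to the subunits. Over all cells 8 ratios near 0 changed sign under at least 1 other setting of the processing, those of NDUFB9, NDUFS6, COX5B and COX7A2 among the 22, ATP5F1B and ATP5PO among the 10, and NDUFA4 and COX5A. Opposite intervals were found for 4 subunits. NDUFB2 turned from -0.14 to 0.20 and ATP5MC3 from -0.09 to 0.09, and COX5A turned from 0.03 to -0.14 and ATP5MC1 from 0.24 to -0.10. The last pair of turns did not hold in cells with low cell cycle sums, where COX5A was at -0.02 and -0.11 and ATP5MC1 at 0.14 and 0.11. In cells with at least 2 TMEM132D-AS1 UMIs every complex sum had the sign it had over all cells: complex I accessory subunits 0.23, complex II -0.28, complex III 0.06, cytochrome c -0.19, complex IV 0.21 and complex V 0.11.

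**Figure D2:**
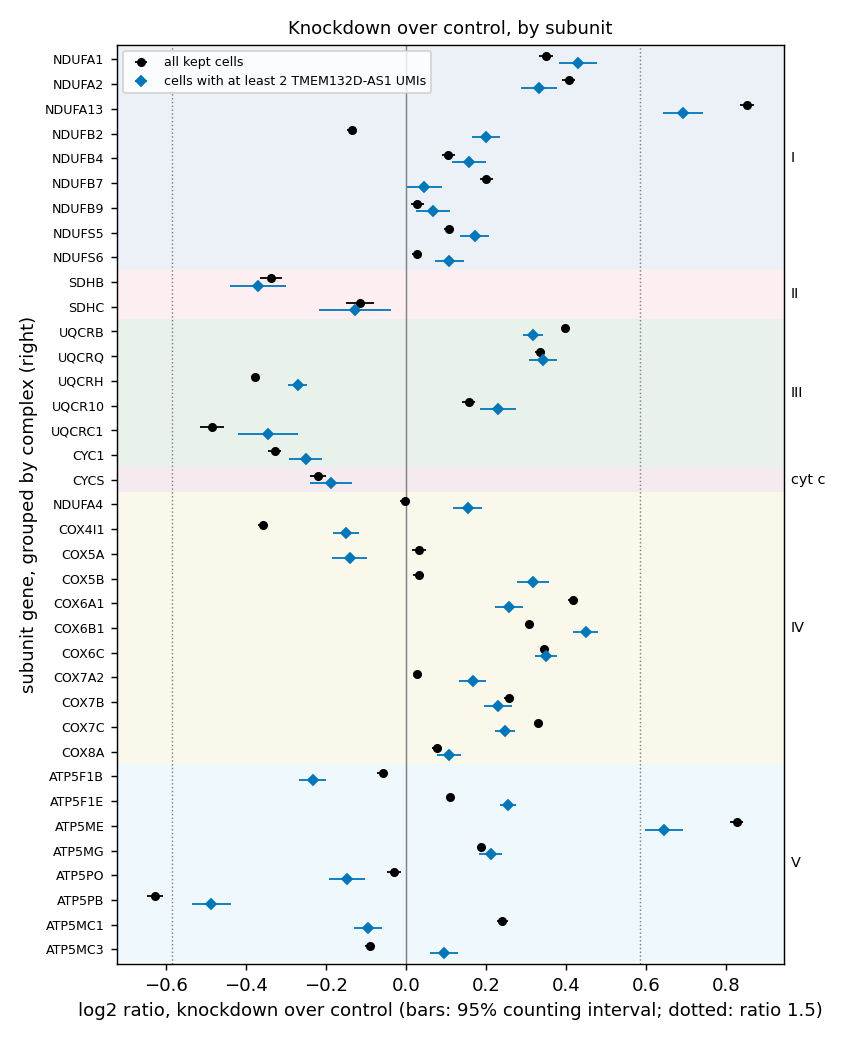
Log2 ratio of knockdown over control for each subunit gene over all kept cells (circles) and within cells with at least 2 TMEM132D-AS1 UMIs (diamonds), with 95% counting intervals and dotted lines at a ratio of 1.5. NDUFA13 and ATP5ME pass the right dotted line in both, ATP5PB passes the left one over all cells (-0.63) and not within the marked cells (-0.49).

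In the cells with under 2 TMEM132D-AS1 UMIs, 4144 control and 730 knockdown cells, the sum went from 20305 to 22180 CPM (0.13) and the median subunit was 0.06 beside -0.03 for all genes. There 2 subunits were higher at 1.5-fold, against 7.85% of all genes, and 0 lower, against 8.57%. At 1.2-fold 11 were higher (22.9% of all genes) and 3 lower (26.7%). The 2 beyond 1.5-fold were NDUFA13 (224 and 407 CPM) and ATP5ME (242 and 394 CPM). ATP5PB had 333 and 223 CPM (-0.58). Within the control library, cells with at least 2 TMEM132D-AS1 UMIs over the remaining control cells gave a subunit median of -0.06 beside -0.01 for all genes. At 1.5-fold 0 subunits were higher or lower in that split, against 4.58% and 4.41% of all genes. At 1.2-fold 1 was higher (18.7% of all genes), ATP5MC1 at 573 against 469 CPM, and 2 were lower (17.6% of all genes), NDUFB2 at 539 against 693 CPM and COX5B at 407 against 496 CPM. Among control cells with low cell cycle sums, 102 of them marked, the split gave 0 higher (20.6% of all genes) and 12 lower (19.9%), with a subunit median of -0.15 and ATP5MC1 at 0.01. ATP5MC1, NDUFB2 and COX5B are among the subunits whose knockdown ratio differed in sign between marked and unmarked cells. Those ratios divide by the same control groups that this split compares, so the overlap is not separate evidence.

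The direction of the ratio went along with the size of the protein. Of the 13 subunits with under 100 codons, 11 had a ratio above 0, with a median of 0.31, and of the 14 with 100 to 149 codons 11 did, with a median of 0.11. Of the 7 with 150 to 299 codons 2 were above 0, and of the 3 with 300 or more codons (UQCRC1, CYC1 and ATP5F1B) 0 were. The exceptions among the smallest were UQCRH and NDUFA4. Over the 37 subunits the Spearman correlation of coding length with the log2 ratio was -0.56, and within cells with at least 2 TMEM132D-AS1 UMIs it was -0.67. In the split within the control library it was -0.01. These are descriptions across genes of the same libraries, and the genes are not independent replicates.

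Among other measured genes the same tilt was weaker. The 200 with under 100 codons had a median of 0.08, with 61.0% above 0, and the 450 with 100 to 149 codons had 0.03. Those with 300 to 599 codons had a median of -0.10. Over all 7718 measured genes with a coding length the Spearman correlation was -0.07, and within the marked cells -0.10. By transcript length the 11 subunits under 700 bases had a median of 0.24, and 198 other genes of that length had 0.12.

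**Figure D3:**
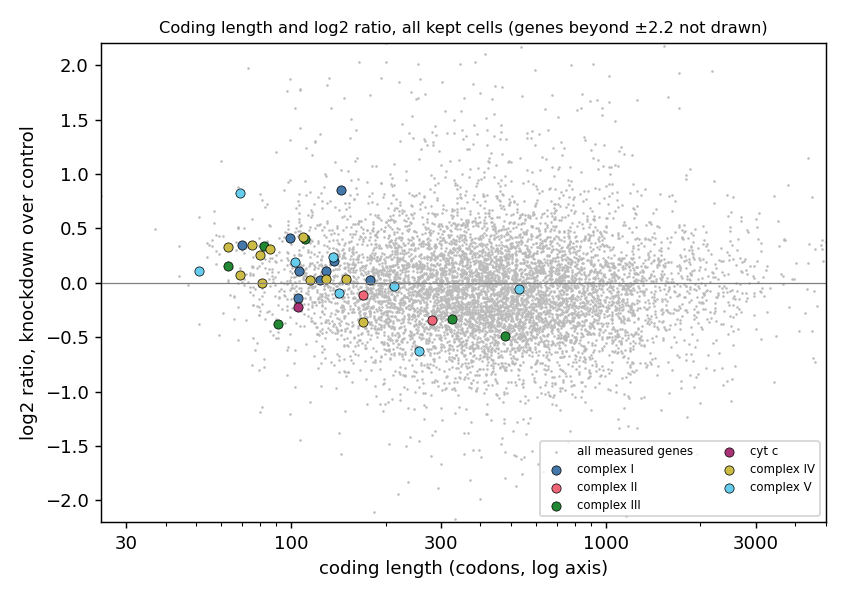
Log2 ratio of knockdown over control over all kept cells against coding length in codons (log axis), with the 37 subunit genes coloured by complex and all measured genes in grey. Subunits with under 100 codons lie mostly above 0 (median 0.31), and the 3 with 300 or more lie below 0.

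The ratios of the subunits also went along with those of their chromosomal surroundings. The median log2 ratio of up to 25 measured genes on each side of a subunit gene had a Spearman correlation of 0.56 with that gene's own ratio over the 37 genes, and 0.37 within the marked cells. COX4I1 (-0.36) lay among genes with a median of -0.61, and UQCRH (-0.38) among genes with -0.42. NDUFA13 (0.85) and ATP5ME (0.83) stood apart from their surroundings, whose medians were -0.14 and 0.08. ATP5F1B (-0.06) lay among genes with a median of 0.33. Subunit genes that share a stretch share their neighbours, and whether copy number of these stretches differs between the libraries was not tested.

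Cells were next divided by the cell cycle lists. Cells with S phase and G2 and M phase sums both under the medians of the control cells (676 and 586 CPM) are called cycle-low here, and made up 1857 control cells (42.3%) and 1787 knockdown cells (66.9%). In cycle-low cells the 37 subunits summed to 18713 CPM in the control and 19419 CPM in the knockdown library, a log2 ratio of 0.05. In the other cells, 2528 control and 885 knockdown, they summed to 21008 and 24597 CPM, a ratio of 0.23. The cells other than cycle-low were also the deeper ones, with medians of 54718 and 64392 UMIs against 34872 and 35702. The strata did not match the libraries in cell cycle sums. S phase sums of control and knockdown were 1612 and 1313 CPM in the other cells and 224 and 180 CPM in cycle-low cells. G2 and M phase sums were 2712 and 2905 CPM, and 163 and 123 CPM. Their part in the subunit ratios was not tested. At 1.2-fold 9 subunits were higher in cycle-low cells of the knockdown library (25.1% of all genes) and 6 lower (27.9%). In the other cells 15 were higher (17.9% of all genes) and 1, ATP5PB, was lower (27.4%). At 1.5-fold 2 were higher in either stratum (9.23% and 5.45% of all genes), and 2 were lower in cycle-low cells (9.64%) and 0 in the other cells (8.83%).

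Within each library, cells other than cycle-low had higher subunit CPM than cycle-low cells. In the control library 30 of 37 subunits had a ratio of other over cycle-low cells above 0, with a median of 0.21 beside 0.11 for all genes. There 15 were higher at 1.2-fold (36.6% of all genes) and 0 lower (20.7%). In the knockdown library 34 of 37 were above 0, with a median of 0.36 beside 0.06, and 25 were higher at 1.2-fold (36.7%) and 0 lower (30.7%). At 1.5-fold 4 were higher in the control library (16% of all genes) and 15 in that of the knockdown (20.3%), with 0 lower in both (8.13% and 15.6% of all genes).

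The subunits with the widest gap were the same in both libraries. CYC1 went from 319 CPM in cycle-low to 498 CPM in other control cells (0.64), and from 228 to 491 CPM in the knockdown library (1.11). SDHB went from 106 to 165 CPM (0.64) and from 75.8 to 161 CPM (1.09). ATP5MC1 went from 344 to 540 CPM (0.65) and from 378 to 775 CPM (1.04), and CYCS from 183 to 298 CPM (0.70) and from 156 to 301 CPM (0.95). These 4 encode an electron carrier of complex III, the iron-sulfur subunit of complex II, a rotor subunit and cytochrome c. NDUFA13, UQCRB and ATP5F1E were the 3 with ratios below 0 in both libraries, at -0.17, -0.25 and -0.15 in the control and -0.12, -0.20 and -0.07 in the knockdown library.

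The log2 ratio of other over cycle-low cells was higher in the knockdown library for 36 of the 37 subunits, NDUFA1 being the exception. The median difference was 0.22. A higher ratio is not always a wider gap: NDUFA13, UQCRB and ATP5F1E, lower outside the cycle-low cells in both libraries, had a narrower one. Of 7450 measured genes 47.3% had a higher ratio in the knockdown library, with a median difference of -0.02. The ratios of all measured genes also spread more widely there, with an interquartile range of 0.86 against 0.61 in the control library. The values for SDHB, CYC1 and CYCS in cells other than cycle-low were near each other in the 2 libraries (165 and 161, 498 and 491, 298 and 301 CPM). In cycle-low cells the log2 ratios of knockdown over control were -0.48 for SDHB, -0.48 for CYC1 and -0.23 for CYCS over all such cells. Within those holding at least 2 TMEM132D-AS1 UMIs (102 control and 1325 knockdown cells) they were -0.20, -0.11 and -0.05, and the sum of the 37 had 0.19 there beside 0.05 over all cycle-low cells. ATP5PB was lower in both strata, at 271 and 158 CPM in cycle-low cells and at 360 and 279 CPM in the others. Whether depth has a part in the gap was not tested. The thinning given next cannot show it, because the cell groups were set before thinning and thinning leaves the expected share of a cell unchanged.

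**Figure D4:**
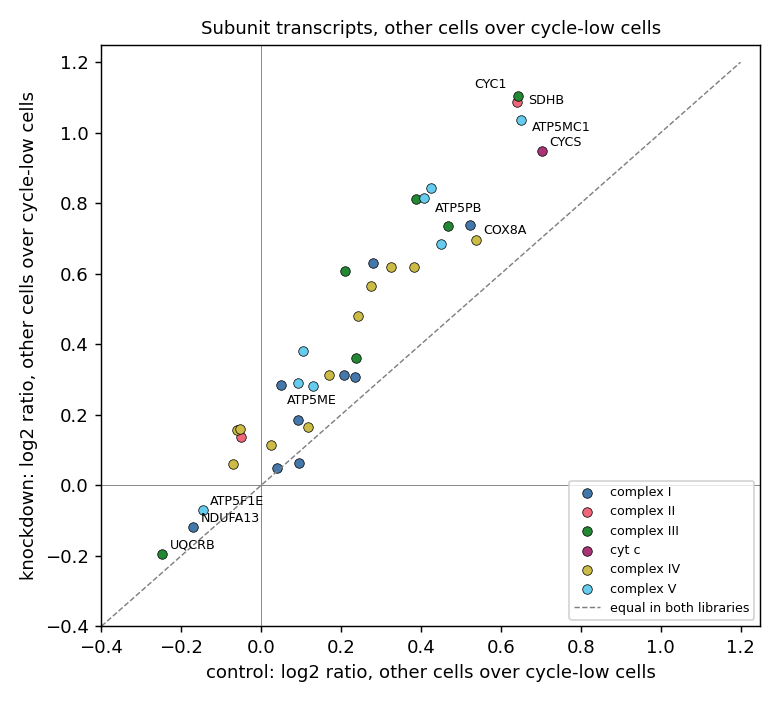
Log2 ratio of cells other than cycle-low over cycle-low cells for each subunit gene in the control library (x axis) and the knockdown library (y axis), coloured by complex, with the line of equal ratios. All points but NDUFA1 lie above the line, CYC1, SDHB, ATP5MC1 and CYCS at the upper right and UQCRB, NDUFA13 and ATP5F1E below 0 on both axes.

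Per cell, after each was thinned to 15000 UMIs, the 37 subunits took a median of 2.01% of UMIs in the control library (5th to 95th percentile 1.41% to 2.76%) and 2.07% in the knockdown library (1.36% to 3.19%). Unthinned, the control median was 2.02%. The variance over the mean of the summed subunit UMIs per thinned cell was 12.2 in control cells and 22.8 in knockdown cells, where 1 stands for sampling alone. Thinned cycle-low cells had medians of 1.85% and 1.87%, and the other thinned cells 2.11% and 2.45%. Within cells with at least 2 TMEM132D-AS1 UMIs the medians were 1.95% and 2.05%.

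**Figure D5:**
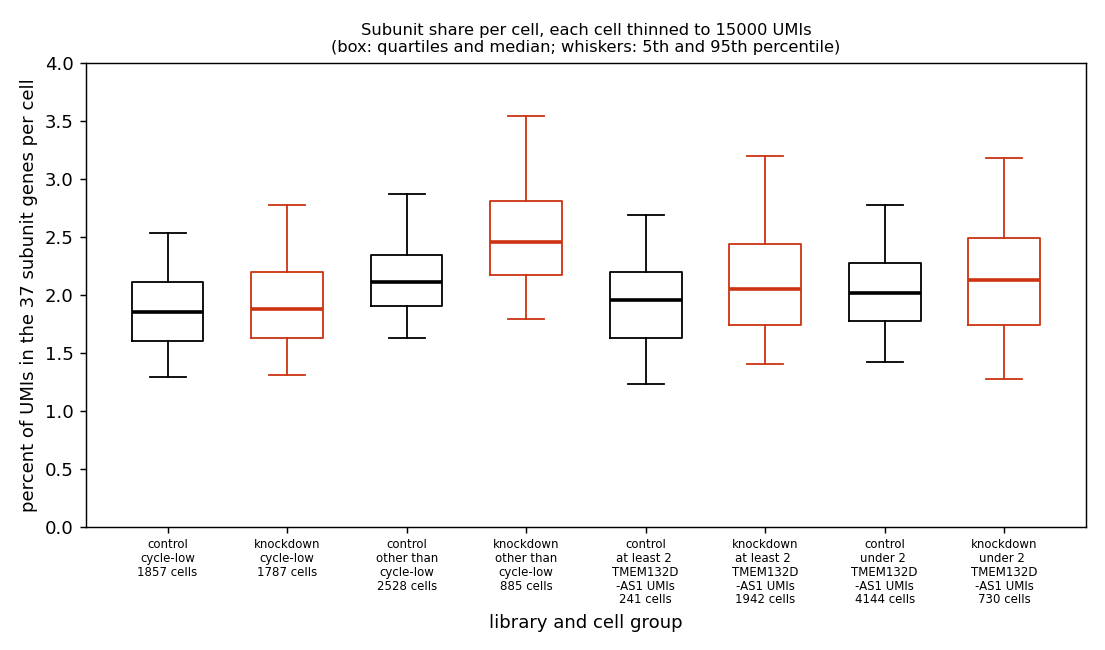
Percent of a cell's UMIs in the 37 subunit genes, each cell thinned to 15000 UMIs, by library and cell group (box at the quartiles with the median, whiskers at the 5th and 95th percentile over cells). Cycle-low cells have similar medians in both libraries (1.85% and 1.87%), and the other cells stand higher in the knockdown library (2.45% against 2.11%).

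The complexes went together from cell to cell. Over the thinned cells the Spearman correlations between complex I, III, IV and V sums were 0.55 to 0.64 over 4385 control cells and 0.61 to 0.76 over 2672 knockdown cells. Complex IV and V had 0.61 and 0.76. Complex II and cytochrome c, with a mean of 2.66 to 3.58 UMIs per thinned cell, had correlations of 0.17 to 0.38 with the others, from which nothing is read at such low counts. The summed subunits had 0.02 and 0.08 with cytosolic ribosomal proteins and -0.25 and -0.21 with the mitochondrially encoded transcripts. With the S phase sum they had 0.35 and 0.44 and with the G2 and M phase sum 0.28 and 0.47. Cells of a library share its preparation, and a share of UMIs in one set lowers that left for another.

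Cells with almost no MT- UMIs had higher subunit shares than the rest. In 428 control and 503 knockdown cells under 0.1% MT- the subunits summed to 24528 and 24682 CPM, and in the remaining cells to 19960 and 21334 CPM. The former were shallower, with medians of 26599 and 29964 UMIs against 45969 and 43343. Their cytosolic ribosomal protein sums were higher too, at 401402 and 403690 CPM against 331693 and 345553 CPM. Without the cells under 0.1% MT-, a limit chosen after seeing the data, the log2 ratio of the sum was 0.10. With cells in 3 ranges of MT- share, cut to hold equal numbers of control cells (at 1.07% and 2.00%), the subunit medians of knockdown over control were 0.05, 0.04 and 0.07 from low to high. At 1.2-fold 8, 11 and 12 subunits were higher in these ranges (23.2%, 26.3% and 24.9% of all genes), and 6, 6 and 7 lower (26.3%, 25.8% and 27.4%). At 1.5-fold 2 were higher in each range (8.19%, 9.3% and 9.49%), and 0, 1 and 0 lower (8.47%, 8.35% and 8.72%). Barcodes with 10 to 100 UMIs, taken as a reading of free RNA, held subunits at 2.11% and 2.17% of UMIs. Across the 37 genes their log2 ratios there had a Spearman correlation of 0.94 with those in cells, with a median of -0.01.

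The 43 further nuclear subunits of complexes I, II, III and V, from a list of the remaining genes, were all measured and gave a median of 0.15, with 2 higher and 2 lower at 1.5-fold (7.69% and 10.4% of all measured genes) and 16 higher and 7 lower at 1.2-fold (20.5% and 31.4%). The same shares over all genes stand behind the counts of the lists that follow. The 21 accessory subunits of complex I had a median of 0.25, with NDUFA3 (168 and 278 CPM) and NDUFB10 (200 and 302 CPM) past 1.5-fold. Within the marked cells NDUFA3 kept a log2 ratio of 0.62 and NDUFB10 had 0.05 (289 and 300 CPM). The 7 core subunits that carry the flavin and iron-sulfur clusters had a median of -0.20, with NDUFS3 (105 and 66.6 CPM, -0.66) past 1.5-fold and NDUFV2 (294 and 226 CPM, -0.38) past 1.2-fold. Within the marked cells they had -0.26 and -0.37. In complex III, UQCR11, a small subunit, was higher (343 and 449 CPM) and UQCRFS1, the Rieske iron-sulfur protein, lower (211 and 146 CPM), with 0.53 and -0.23 within the marked cells. In complex V, ATP5MC2, the third gene for subunit c, was higher (1229 and 1679 CPM, 0.45, and 0.18 within the marked cells). ATP5F1A, the alpha subunit paired with ATP5F1B in the head, had 369 and 172 CPM (-1.10), and 232 and 169 CPM (-0.46) within the marked cells. Of 7 tissue-restricted isoforms COX7B2 alone was measured, at 50.5 and 51.1 CPM, and COX6A2 and COX7A1 had 0 UMIs in both libraries.

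Of 51 gene entries matched to the list of assembly factors, where a symbol can have more than 1 entry, 47 were measured. They had a median of 0.01, with 2 higher and 0 lower at 1.5-fold. The 2 were COX14 (125 and 197 CPM) and COX16 (36.4 and 54.7 CPM), both needed to build complex IV. Within the marked cells COX14 had a log2 ratio of 0.15 and COX16 of 0.65. The 9 measured transcriptional regulators had a median of -0.30, with 0 higher and 1 lower at 1.5-fold. TFAM, which packages and transcribes mitochondrial DNA, had 106 and 85.4 CPM (-0.32), and YY1 had 146 and 152 CPM (0.06). The 12 citric acid cycle genes had a median of -0.24, with 0 higher and 5 lower at 1.2-fold, led by MDH2 (387 and 270 CPM). The 18 measured import genes had a median of -0.15, with 2 higher and 5 lower at 1.2-fold. Of these, TIMM8B (126 and 177 CPM) and TOMM7 (398 and 508 CPM) had the highest ratios. TOMM5 had the lowest (68.6 and 52.8 CPM, -0.38), and 0.08 within the marked cells. The 77 cytosolic ribosomal protein genes had a median of 0.07 and the 76 measured mitochondrial ribosomal protein genes -0.11.

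The mitochondrially encoded subunits had a median ratio opposite in sign to that of their nuclear partners. The 13 transcripts summed to 17807 CPM in the control and 11837 CPM in the knockdown cells, and the 11 measured had a median log2 ratio of -0.52, and -0.55 within the marked cells. At 1.5-fold 0 were higher and 4 lower: MT-CYB of complex III (2658 and 1428 CPM), MT-CO3 of complex IV (2430 and 1390 CPM), MT-ND1 of complex I (615 and 384 CPM) and MT-ATP6 of complex V (2355 and 1478 CPM). MT-ND4L was the 1 measured transcript with a ratio above 0 (37.4 and 55.4 CPM). Cells were kept by their MT- share, but most lay far under the limit of 20%. The 95th percentile of this share was 3.94% over kept control cells and 3.20% over kept knockdown cells. Without the limit 7.70% of all measured genes were higher at 1.5-fold, beside 7.69% with it. Cells under 0.1% MT- were 9.76% of kept control cells and 18.8% of kept knockdown cells. What part such cells have in the MT- sums was not tested.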

How the data were processed

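The authors deposited raw UMI counts per gene and barcode for each library as sparse matrices, made with Cell Ranger 3.1.0 on GRCh38 per the submitters' processing notes. The matrices list 6794880 barcodes each, so the deposited counts were not restricted to cells. The annotation release, the strand setting and any mouse sequence in the reference are unknown here. The libraries hold 239857346 (control) and 155064055 (knockdown) UMIs, from 10000 cells loaded each.

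Here barcodes with at least 15000 UMIs and at most 20% MT- UMIs were summed per library and divided by the total (CPM). Doublets were not removed. Sums carry exact Poisson 95% intervals and ratios exact conditional binomial ones. The motif letters searched for NRF1 hold 1 free base. Genes with at least 10 CPM in either library were measured. Thinning drew 15000 UMIs per cell. Lengths and positions came from GENCODE 29, matched by identifier for 33427 genes. The calling code was tested on simulated data. Python 3.11.15, numpy 2.4.6, scipy 1.17.1, pandas 2.3.3 and matplotlib 3.10.9 were used. Every subunit is accounted for. Of each further list up to 2 genes with the highest and 2 with the lowest ratio at 50 CPM or more could be named, all 13 mitochondrially encoded ones, and others to spell out small counts. The subunits and lists were chosen with earlier results of these data known. Alternatives varied the UMI, MT- and TMEM132D-AS1 limits, the scaling, the weight and depth of cells, the cell cycle stratum and the filter on low genes.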

Additional observations from a re-analysis of the deposited data

Results flagged for a closer look

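For 7 subunit genes the log2 ratio of knockdown over control had opposite signs, with counting intervals leaving out 0, in cells with under 2 and with at least 2 TMEM132D-AS1 UMIs. With 1 library per group the difference between the cell groups was not tested. How many of all measured genes had such opposite signs is not given here, so the 7 are not read as a trait of the subunits. The ratios in cells with under 2 UMIs were not read under other settings. NDUFB2 had -0.14 in the cells with under 2 UMIs and 0.20 in those with at least 2. NDUFS6 had -0.04 and 0.11, COX5B -0.04 and 0.32, and ATP5MC3 -0.11 and 0.09 in the same order. SDHC had 0.06 and -0.13, ATP5PO 0.03 and -0.15, and ATP5MC1 0.44 and -0.10. In cycle-low cells with at least 2 UMIs ATP5MC1 was at 0.11, so its turn did not hold there. The control side of the marked group rests on 241 cells. Each ratio divides by its own group of control cells, so a difference within the control library alone can part the signs.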

How the results depend on the processing

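Under every setting tried the subunit median kept its sign in all 3 comparisons and the sum of all subunits in both between the libraries, and complex III alone among the complex sums changed sign, over all cells. For all kept cells the median log2 ratio of 0.08 was 0.0937 at 30000 UMIs or more, 0.0453 without barcodes above 100000, 0.1439 centred on all genes, 0.1027 with totals lacking MT- and ribosomal protein genes, 0.0161 with cells weighted equally, 0.0223 thinned and 0.0451 in cycle-low cells. The sum of all subunits was 0.1175, 0.0922, 0.1750, 0.1337, 0.0707, 0.0689 and 0.0534 in the same order, 0.1027 at 10000 UMIs, 0.1112 at 20000 and 0.0961 without cells under 0.1% MT-. Subunits lower at 1.5-fold numbered 0 centred (8.09% of all genes) and 2 in cycle-low cells (9.64%). Within cells with at least 2 TMEM132D-AS1 UMIs, centring gave a median of 0.2455, a sum of 0.2362, and 16 higher (18.5% of all genes) and 2 lower (16.8%) at 1.2-fold. Cycle-low cells there gave 0.2123 and 0.1858, with 1 higher at 1.5-fold (4.07%) and 1 lower at 1.2-fold (15.1%), from 102 control cells. The sum was 0.1743 with the reduced totals, 0.1347 thinned and 0.1387 without cells under 0.1% MT-. In the split of the control library, thinning gave 0 higher (18.5%) and 4 lower (15.7%) at 1.2-fold, cycle-low cells a median of -0.1499 with 0 (20.6%) and 12 (19.9%), and a limit of 1 UMI 0 (17.3%) and 1 (16.3%). With 50 CPM as the filter, all genes had medians of -0.1441 from 2000 and -0.0615 from 4000 bases. The causes were not tested. Over all settings 29 of 37 subunits kept their sign over all cells, 36 within marked cells (ATP5MC1 did not) and 30 in the control split. No paired analysis was possible because each group is 1 library without replicate numbers. With 1 library per group, counting depth is not the limit: the intervals are narrow and leave out variation between cells, tumours, mice or preparations. Between thinned cells the variance over the mean of the subunit sum was 12.2 (control) and 22.8 (knockdown), where sampling alone gives 1. An interval leaving out 0 therefore gives a direction for these counted molecules only.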
